A study of Mus musculus with 6 samples.

Results

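Imprinted genes were examined together, by cluster and by the parental allele they are usually expressed from. The members were a list of 36 mouse imprinted genes in 16 clusters on 8 chromosomes, and a probe set counted for a member if the annotation gave it that single gene symbol. Of the 36, 32 had such a probe set, with 91 probe sets among the 45101 on the array and 18193 measured genes in all. H19 was present only in 1 probe set shared with another symbol, and Rtl1, Dio3 and Zrsr1 had none, so these 4 genes have no values. Zim1 and Nap1l5 were too dim to be tested, which left 30 members among 12922 tested genes.

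The study profiled Flk1+ mesodermal cells of embryoid bodies (EBs), clumps in which embryonic stem (ES) cells differentiate, to examine genes that depend on Scl (gene symbol Tal1), a transcription factor required for blood formation. There were 3 groups of 2 arrays. WT Scl+ and WT Scl- were Flk1+hCD4+ and Flk1+hCD4- cells of 1 ES line derived from R1, of (129/Sv x 129/Sv-CP)F1 origin, with a human CD4 reporter knocked in at Scl. SclKO was a Scl knockout line derived from J1, of 129S4/SvJae origin, whose cells were sorted for Flk1 alone although the sample titles also call them Scl-. All lines were kept on gelatin with serum and LIF, spent 2 days in a pre-EB medium with LIF, and were grown for 4 days from 100000 cells per well in an EB medium with serum, monothioglycerol, transferrin and ascorbic acid. In both comparisons of SclKO with WT cells, the knockout, the parental ES line with its strain, and the sort gate cannot be told apart. Both use the same SclKO arrays, so they are not independent of each other. Whether the 2 arrays of a group were separate cultures is not given in the labels, and a p-value here speaks for the spread of these arrays alone.

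Imprinted genes are expressed mainly from the maternal or the paternal allele, according to DNA methylation laid down in the germ line and kept in the embryo by factors such as ZFP57 and DNMT1. Most lie in clusters governed by an imprinting control region, often through a long non-coding RNA that silences neighbours on the same chromosome copy. Many act on fetal and placental growth, and imprints are known to be unstable in cultured ES cells. The arrays measure total RNA and do not tell the alleles apart.

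Values are natural logs of the deposited signals. A difference of 1 log unit is 2-fold if the natural log returns RMA's log2 scale and 2.72-fold if the deposited signals are linear, and the files do not settle which. Levels are compared between arrays for 1 probe set, never between probe sets. Array medians lay between 5.20 and 5.25, and the limit for dim values, each array's 40th percentile, between 4.54 and 4.59. WT Scl+ replicate 2 stood apart on the first principal component (-51.3, against -9.86 to 26.0 for the other 5 arrays). Over the tested genes, the WT Scl+ arrays correlated 0.969 with each other, and replicate 1 correlated 0.987 with an array of another group. The WT Scl- arrays correlated 0.983 with each other, less than with their closest arrays of other groups (0.986 and 0.987). The SclKO arrays correlated 0.988 with each other, more than with any other array (at most 0.986 and 0.982). Tal1 was 8.65 and 8.78 in WT Scl+, 6.52 and 7.97 in WT Scl-, and 5.71 and 6.14 in SclKO, so WT Scl+ was highest and SclKO lowest, without overlap. The labels do not say whether this probe set lies in the deleted stretch of the gene. Kdr, which encodes Flk1, lay between 10.83 and 11.35 on all 6 arrays. Of 11 Flk1+ mesoderm markers, 10 had a probe set and all 10 were tested. The mean level of blood markers was 6.09 to 6.42 in WT Scl+, 4.58 to 5.30 in WT Scl- and 4.29 to 4.48 in SclKO. In bulk cells, fewer cells of a type and less RNA per cell cannot be told apart.

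Most of the imprinted genes were read above the dim limit in these cells, and they differed between the groups in both directions. Of the 32 measured members, between 26 and 29 lay above the dim limit on each array, and their mean level was 7.73 to 7.86 in WT Scl+, 7.89 to 7.95 in WT Scl- and 7.98 to 8.09 in SclKO. In SclKO, Cdkn1c, Igf2, Phlda2 and Igf2r were higher than in either WT group, while Meg3, Rian, Mest and Airn were lower. Cdkn1c passed an adjusted p under 0.05 in limma, with Benjamini-Hochberg adjustment over all tested genes, and the other members did not. Cdkn1c was above the dim limit in SclKO alone and entered the test through those values. Within clusters, members differed in size and direction, as the plots of levels and differences show.

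**Figure D1:**
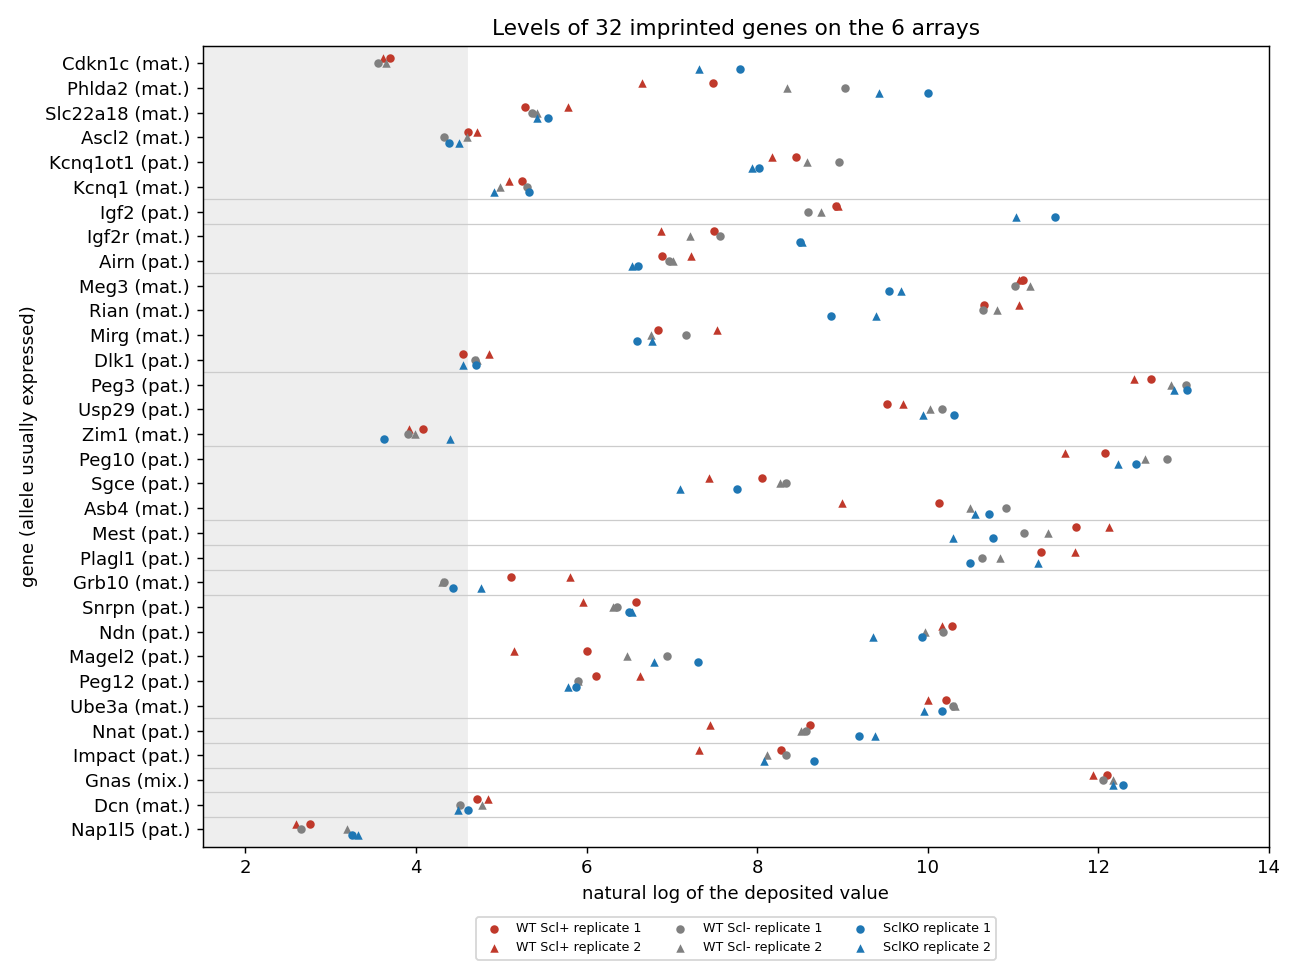
Natural log of the deposited value (horizontal axis) of 32 imprinted genes on the 6 arrays, 1 row per gene with the allele usually expressed (mat., maternal; pat., paternal; mix., depends on the transcript) and lines between clusters. Colours are groups, circles and triangles are replicates 1 and 2, and the grey band lies under the highest dim limit of 4.59. Cdkn1c lies in the band on all 4 WT arrays and at 7.31 and 7.80 in SclKO, and Meg3 lies at 9.55 and 9.68 in SclKO against 11.03 to 11.19 on the WT arrays.

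Counts of members are given at an unadjusted p under 0.05, a descriptive threshold, beside the percentage of all tested genes past it. The members were chosen with earlier results of these data known, so a share above that percentage is not an independent finding. Between WT Scl+ and WT Scl-, 3 of 30 members were higher in WT Scl+ and 6 lower, against 5.39% of all genes higher, 3.75% lower and 9.14% in either direction. The member count was lower without WT Scl- replicate 1 or WT Scl+ replicate 2, and higher without WT Scl+ replicate 1. The share of all genes under those settings is not given here, so these shifts cannot be read against 9.14%. No gene passed the adjusted threshold there (0% of genes; limma), and 1181 did at an unadjusted p under 0.05. Without WT Scl+ replicate 1, 203 genes passed it.

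Between SclKO and WT Scl+, 9 of 30 members were higher in SclKO and 7 lower, against 7.16% of all genes higher, 6.81% lower and 14% in either direction. That count was lower without SclKO replicate 1. Between SclKO and WT Scl-, 4 were higher and 6 lower, against 3.15% of all genes higher, 2.38% lower and 5.53% in either direction. This count was lower without WT Scl- replicate 2. At the adjusted threshold, Cdkn1c was the single gene past it in each of these comparisons (0.00774% of genes). The medians over the 30 tested members were -0.01, -0.05 and -0.02 log units for WT Scl+ against WT Scl-, SclKO against WT Scl+ and SclKO against WT Scl-, and those of all tested genes were -0.02, 0.04 and 0.02. Of the tested members, 2 were above the dim limit in 1 group only, Cdkn1c in SclKO and Ascl2 in WT Scl+, so that their being tested was tied to the difference.

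Maternally and paternally expressed genes each had members in both directions. Among the 13 tested maternally expressed genes, 3 were higher and 2 lower in SclKO than in WT Scl-, with a median of -0.02. Among the 16 tested paternally expressed genes, 1 was higher and 4 were lower, with a median of -0.02. Against WT Scl+, SclKO had 4 maternal genes higher and 3 lower and 5 paternal genes higher and 4 lower. Between the WT groups, 1 maternal gene was higher and 2 were lower in WT Scl+, and 2 paternal genes were higher and 4 lower. As shares of those tested, these were 38.5% of maternal and 31.2% of paternal genes in SclKO against WT Scl- (5.53% of all genes), 53.8% and 56.2% against WT Scl+ (14%), and 23.1% and 37.5% between the WT groups (9.14%). The maternal shares with SclKO include Cdkn1c, which was tested through its SclKO values alone. As the members were chosen with earlier results known, the shares are descriptive, and the difference between the 2 classes was not tested.

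**Figure D2:**
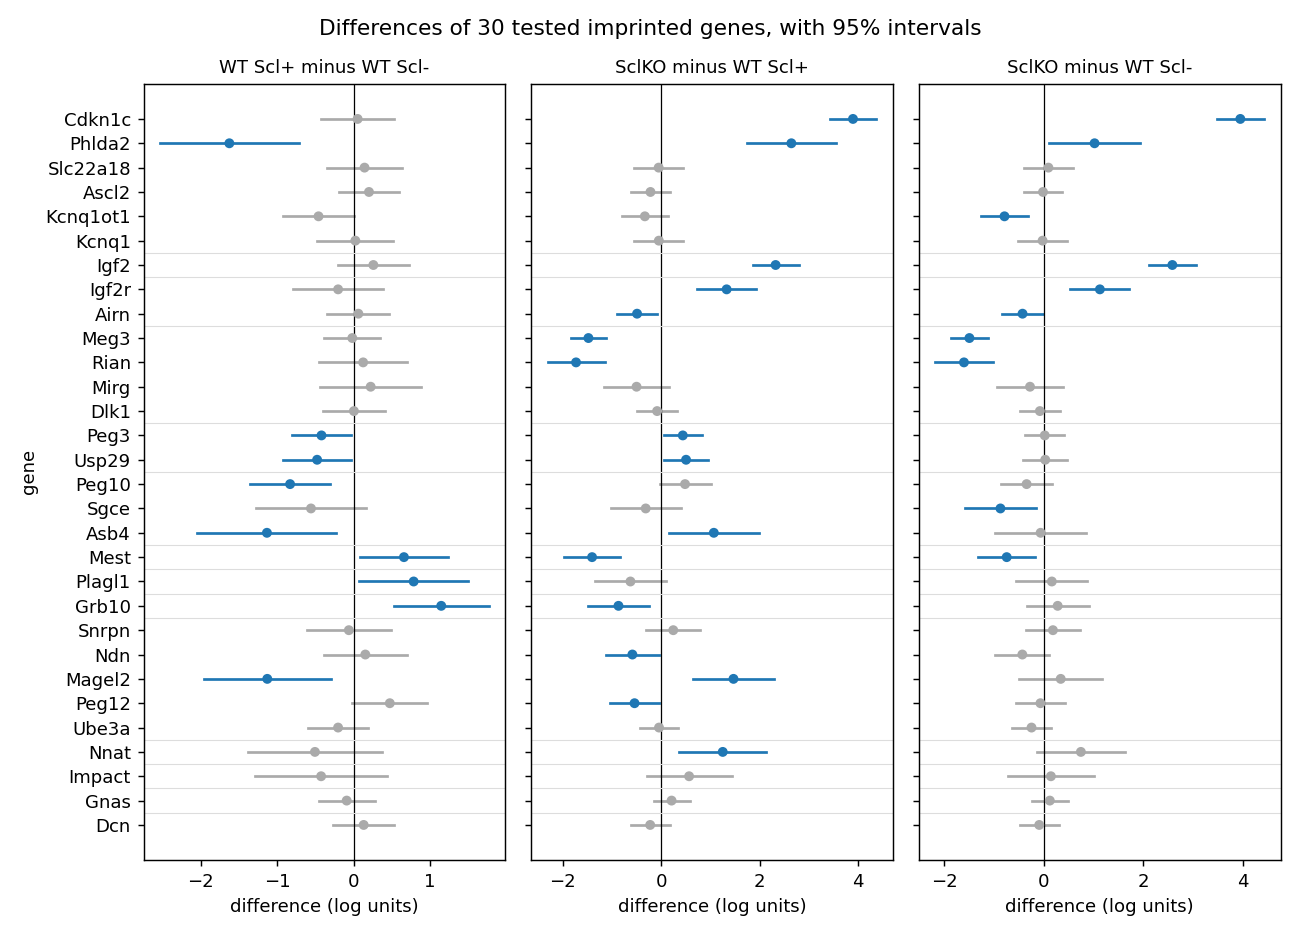
Difference in log units (horizontal axis) with its 95% interval from limma for the 30 tested imprinted genes (rows), in 3 panels, each with its own scale. Blue marks an unadjusted p under 0.05 and grey the rest, and lines part the clusters. Cdkn1c has the intervals 3.42 to 4.38 and 3.48 to 4.43 in the panels with SclKO, and in the panel of WT Scl+ against WT Scl- blue points lie on both sides of 0.

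The Kcnq1 domain on chromosome 7 held the one gene past the adjusted threshold. In this domain the paternally expressed non-coding RNA Kcnq1ot1 is known to silence, in cis, the maternally expressed genes around it. Cdkn1c encodes p57Kip2, an inhibitor of cyclin-dependent kinases that restrains growth of the embryo. It read 3.69 and 3.62 in WT Scl+, 3.56 and 3.64 in WT Scl-, and 7.80 and 7.31 in SclKO. Its 4 WT values were under the dim limit, and both SclKO values were far above it, so it was tested only through the group where it was high. Cdkn1c was 3.90 log units higher in SclKO than in WT Scl+ (SE 0.20, adjusted p = 0.01 in limma) and 3.95 higher than in WT Scl- (SE 0.20, adjusted p = 0.0096 in limma). With the WT values set to the dim limit, the differences were at least 3.00 and 2.97 log units, which is at least 8.00-fold and 7.85-fold on the log2 reading and 20.1-fold and 19.5-fold on the linear one. With no filter on dim genes the adjusted p was 0.00816 and 0.00747 in limma. Leaving out 1 array kept the difference from WT Scl+ between 3.66 and 4.14 and that from WT Scl- between 3.71 and 4.20. The adjusted p rose to 0.158 against WT Scl+ without WT Scl+ replicate 2, 0.109 without SclKO replicate 1 and 0.0588 without SclKO replicate 2. Against WT Scl- it rose to 0.185 and 0.220 without WT Scl- replicate 1 or 2, and to 0.101 and 0.0551 without SclKO replicate 1 or 2.

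Phlda2, a pleckstrin-homology protein that restrains placental growth, separated all 3 groups. It read 7.49 and 6.65 in WT Scl+, 9.03 and 8.35 in WT Scl-, and 10.00 and 9.43 in SclKO. The groups did not overlap, with WT Scl+ lowest and SclKO highest. The WT Scl+ mean differed from that of WT Scl- by -1.63 log units (95% interval -2.53 to -0.72, adjusted p = 0.40 in limma). SclKO exceeded WT Scl+ by 2.65 (95% interval 1.74 to 3.56, adjusted p = 0.12 in limma) and WT Scl- by 1.02 (95% interval 0.11 to 1.93, adjusted p = 0.89 in limma). The first of these SclKO differences was 2.23 without WT Scl+ replicate 2 and 3.07 without WT Scl+ replicate 1.

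Kcnq1ot1, the silencing RNA of the domain, pointed the other way. Its brightest probe set read 8.46 and 8.17 in WT Scl+, 8.96 and 8.59 in WT Scl-, and 8.03 and 7.94 in SclKO. SclKO was the lowest group and did not overlap WT Scl-, from which it differed by -0.79 log units (95% interval -1.26 to -0.32, adjusted p = 0.89 in limma). All 5 probe sets of Kcnq1ot1 above the dim limit were lower in SclKO than in WT Scl-, by -0.91 to -0.18. Against WT Scl+, 4 of 5 were lower, and the range was -0.58 to 0.47. The probe set with the largest variance gave -0.29 against WT Scl-.

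Other genes of the same domain stayed near 0 in SclKO. Slc22a18, a solute carrier, lay between 5.28 and 5.79 on the 6 arrays and differed between SclKO and WT Scl- by 0.09 (95% interval -0.40 to 0.59). Kcnq1, a potassium channel subunit, lay between 4.92 and 5.32, with a difference of -0.02 (95% interval -0.52 to 0.48). Ascl2, a helix-loop-helix factor of trophoblast, lay at or near the dim limit, between 4.33 and 4.72. Beside the cluster, the 10 nearest tested genes that were not members had differences of -0.35 to 0.58 from WT Scl-, with a median of 0.05. Among them, Ins2, Nap1l4 and Osbpl5 are themselves reported as imprinted.

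Promoters of Phlda2 and Kcnq1ot1 are shown because these neighbours pointed in opposite directions in SclKO. Each is the 250 bases before the start in RefSeq, assembly GRCm38.p6, 5′ to 3′ on the gene's own minus strand, with CCAAT, the letters read by the factor NF-Y, in capitals. The Phlda2 promoter is chr7:143502525-143502774 and the first Kcnq1ot1 promoter chr7:143296548-143296797.
Phlda2: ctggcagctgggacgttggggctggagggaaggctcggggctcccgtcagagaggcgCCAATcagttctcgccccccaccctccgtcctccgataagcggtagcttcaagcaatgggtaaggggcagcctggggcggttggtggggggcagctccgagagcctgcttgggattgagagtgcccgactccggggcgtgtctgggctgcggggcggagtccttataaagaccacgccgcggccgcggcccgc
Kcnq1ot1: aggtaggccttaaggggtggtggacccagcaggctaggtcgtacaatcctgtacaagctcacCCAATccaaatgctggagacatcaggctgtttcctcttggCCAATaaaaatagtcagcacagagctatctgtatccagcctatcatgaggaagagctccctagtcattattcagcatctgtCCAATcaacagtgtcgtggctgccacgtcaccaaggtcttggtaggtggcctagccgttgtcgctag
The Phlda2 stretch held 21 CpG and 1 CCAAT, which began 193 bases before the start. The Kcnq1ot1 stretch held 5 CpG and 3 CCAAT, which began 188, 148 and 67 bases before it. At least 3 matches to CCAAT on either strand were present in 2.79% of all 32851 promoters of the table. Among the 42 promoters of imprinted genes it was 4.76%, or 2 promoters, 1 of them the Kcnq1ot1 promoter shown. At least 1 match was present in 33.8% of all promoters and in 33.3% of those of imprinted genes. A match is a run of letters and not a measured binding site.

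Igf2 and the genes that act on its signal formed the next group. Igf2 is a fetal growth factor expressed from the paternal allele, Igf2r a maternally expressed receptor that clears it, and Grb10 an adaptor that dampens insulin and IGF receptor signalling. Igf2 read 8.92 and 8.95 in WT Scl+, 8.59 and 8.75 in WT Scl-, and 11.49 and 11.03 in SclKO. Both SclKO arrays stood more than 2 log units above every WT array. SclKO exceeded WT Scl+ by 2.33 log units (95% interval 1.86 to 2.80, adjusted p = 0.054 in limma) and WT Scl- by 2.59 (95% interval 2.12 to 3.06, adjusted p = 0.056 in limma). The second Igf2 probe set gave 2.28 and 2.77. Leaving out 1 array kept the Igf2 difference from WT Scl+ between 2.10 and 2.55 and that from WT Scl- between 2.36 and 2.81. With a variance trend in limma the adjusted p was 0.0096 against WT Scl+ and 0.00625 against WT Scl-. No level of its reciprocal neighbour H19 could be given.

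Igf2r read 7.49 and 6.88 in WT Scl+, 7.56 and 7.21 in WT Scl-, and 8.50 and 8.53 in SclKO. By this probe set the WT groups overlapped and SclKO lay above both. Its difference was 1.33 from WT Scl+ (95% interval 0.74 to 1.92, adjusted p = 0.13 in limma) and 1.13 from WT Scl- (95% interval 0.54 to 1.72, adjusted p = 0.81 in limma). The first was 1.02 without WT Scl+ replicate 2 and 1.64 without WT Scl+ replicate 1. The other Igf2r probe set gave 2.15 and 1.11. In that probe set the WT groups did not overlap, with 7.23 and 5.67 in WT Scl+ and 7.43 and 7.54 in WT Scl-, a difference of -1.03. Airn is the paternally expressed antisense RNA that is known to silence Igf2r in cis. Airn read 6.89 and 7.22 in WT Scl+, 6.97 and 7.02 in WT Scl-, and 6.60 and 6.53 in SclKO. Its SclKO values lay under every WT value, by -0.49 from WT Scl+ (95% interval -0.90 to -0.08) and -0.43 from WT Scl- (95% interval -0.83 to -0.02). All 5 Airn probe sets were lower in SclKO than in WT Scl- (-1.04 to -0.12), and 4 of 5 were lower than in WT Scl+ (-0.70 to 0.05). Without WT Scl+ replicate 2 the Airn difference from WT Scl+ was -0.32.

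Grb10 was bright enough to be read mainly in WT Scl+. By its brightest probe set it read 5.12 and 5.81 in WT Scl+, 4.33 and 4.31 in WT Scl-, and 4.43 and 4.76 in SclKO. Only 3 of its 6 values were above the dim limit, both in WT Scl+ and 1 in SclKO. The WT Scl+ mean exceeded that of WT Scl- by 1.15 log units (95% interval 0.52 to 1.77, adjusted p = 0.40 in limma), or at least 0.88 with dim values at the limit. The difference of 1.15 became 0.80 without WT Scl+ replicate 2 and 1.49 without WT Scl+ replicate 1. SclKO was 0.87 lower than WT Scl+ (difference -0.87, 95% interval -1.49 to -0.24), and -0.52 without WT Scl+ replicate 2. Without WT Scl+ replicate 1 it was -1.21. The second Grb10 probe set, also above the limit on 3 of 6 arrays, gave 0.72 between the WT groups, -0.23 from WT Scl+ and 0.49 from WT Scl-, or 0.16, -0.17 and -0.01 with dim values at the limit. Chromosome 11, which carries Grb10, had a median difference of -0.15 over its 1124 tested genes in both SclKO comparisons. Of 14 other genes of the IGF axis with a probe set, 12 were tested. Against WT Scl+, 1 was higher in SclKO (Igfbp2, a binding protein for IGFs, by 0.51) and 2 were lower (Irs2, a docking protein of the insulin receptor, by -0.59, and Igf1 by -3.73), 25% of those tested against 14% of all genes. Igf1 varied within groups, with 7.76 and 9.27 in WT Scl+, 4.48 and 8.00 in WT Scl-, and 4.50 and 5.08 in SclKO. Between SclKO and WT Scl-, and between the WT groups, 0 of the 12 passed an unadjusted p under 0.05 in limma.

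Meg3 and Rian, maternally expressed non-coding RNAs of the Dlk1-Dio3 domain on chromosome 12, were lower in SclKO than in both WT groups. Meg3 (also called Gtl2), Rian and their neighbour Mirg are long RNAs that host small nucleolar RNAs and miRNAs, and Dlk1 is the paternally expressed transmembrane protein of the domain. Meg3 read 11.12 and 11.07 in WT Scl+, 11.03 and 11.19 in WT Scl-, and 9.55 and 9.68 in SclKO. By this probe set, the brightest, the 4 WT arrays were close together and both SclKO arrays lay well under them. The difference was -1.48 log units from WT Scl+ (95% interval -1.84 to -1.12, adjusted p = 0.076 in limma) and -1.50 from WT Scl- (95% interval -1.86 to -1.13, adjusted p = 0.21 in limma). Leaving out 1 array kept the first between -1.55 and -1.41. With a variance trend in limma the adjusted p-values were 0.0096 and 0.0089. All 11 Meg3 probe sets were lower in SclKO, by -1.76 to -0.27 against WT Scl+ and by -1.97 to -0.60 against WT Scl-. Between the WT groups, 8 of the 11 were lower in WT Scl+ and 3 higher, by -0.76 to 0.26. Some of these separated the WT groups, such as 1 that read 9.50 and 9.42 in WT Scl+ and 10.06 and 10.07 in WT Scl-.

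Rian read 10.66 and 11.07 in WT Scl+, 10.65 and 10.82 in WT Scl-, and 8.87 and 9.39 in SclKO. Again no SclKO value reached a WT value. Its difference was -1.73 from WT Scl+ (95% interval -2.31 to -1.15, adjusted p = 0.12 in limma) and -1.60 from WT Scl- (95% interval -2.18 to -1.03, adjusted p = 0.80 in limma). Leaving out 1 array kept its difference from WT Scl+ between -1.99 and -1.47. All 4 Rian probe sets were lower in both SclKO comparisons, by -1.73 to -0.87 and -1.74 to -0.89.

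Mirg and Dlk1 gave different answers from different probe sets. The brighter Mirg probe set lay between 6.60 and 7.53, and SclKO overlapped WT Scl-, with a difference of -0.28 (95% interval -0.94 to 0.39). It lay under WT Scl+ by a difference of -0.50 (95% interval -1.16 to 0.16). The other Mirg probe set read 6.35 and 6.24 in WT Scl+, 6.28 and 6.21 in WT Scl-, and 5.06 and 5.01 in SclKO, lower by -1.26 and -1.21. For Dlk1 the probe set used stayed near the dim limit, between 4.55 and 4.86. The second Dlk1 probe set read 3.73 and 3.89 in WT Scl+, 3.85 and 4.60 in WT Scl-, and 5.82 and 5.50 in SclKO. By that probe set, with dim values set to the limit, Dlk1 was at least 1.10 log units higher in SclKO than in WT Scl+ and at least 1.07 higher than in WT Scl-. The probe set used gave -0.08 from WT Scl- (95% interval -0.48 to 0.33). Near the dim limit and with an interval across 0, it gave no direction to set against the second probe set.

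**Figure D3:**
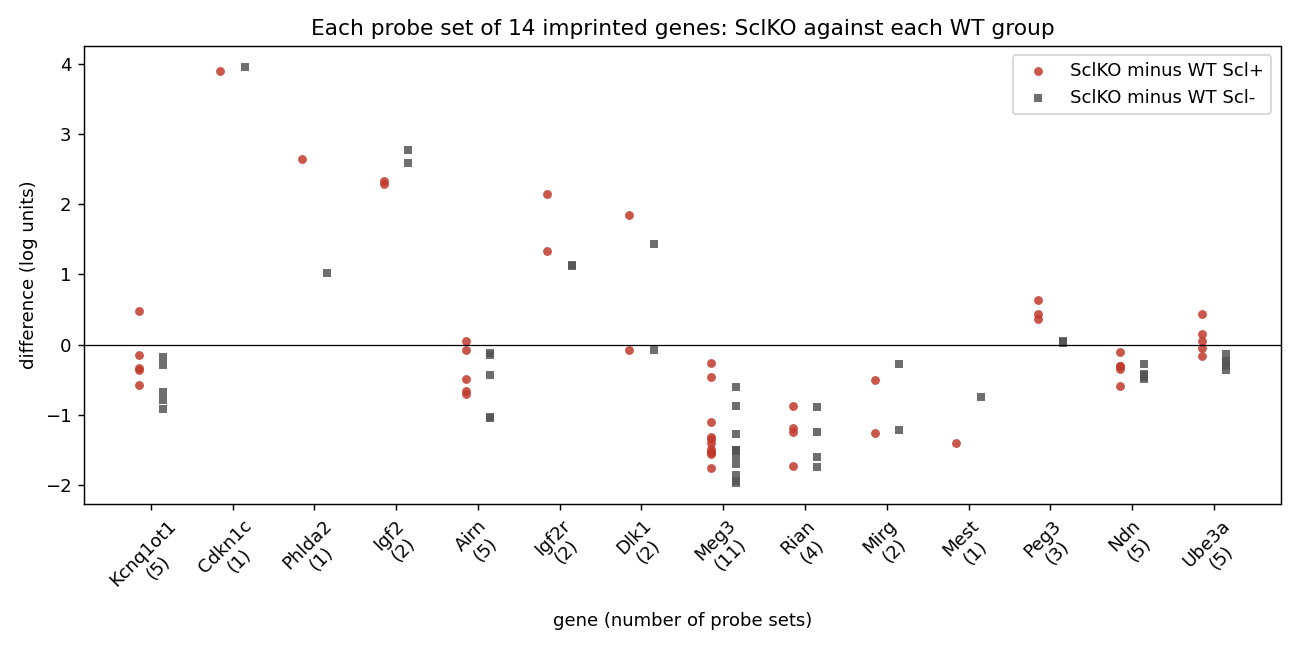
Difference in log units (vertical axis) of every probe set above the dim limit on at least 2 arrays for 14 imprinted genes (horizontal axis, number of probe sets in brackets). Red circles are SclKO minus WT Scl+ and grey squares SclKO minus WT Scl-. All 11 probe sets of Meg3 and all 4 of Rian lie under 0, both of Igf2 lie above 2, and those of Dlk1 lie apart at -0.08 and 1.85 against WT Scl+, the second from WT Scl+ values under the dim limit.

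The promoter of Meg3 is shown because every Meg3 probe set was lower in SclKO. It is the first of the Meg3 promoters in RefSeq, chr12:109540746-109540995 on the plus strand of GRCm38.p6. Capitals mark, in order, GCGGCA (the other strand of TGCCGC, the core of the ZFP57 motif), CCAAT and TGACGTCA (the palindrome read by CREB-family factors).
Meg3: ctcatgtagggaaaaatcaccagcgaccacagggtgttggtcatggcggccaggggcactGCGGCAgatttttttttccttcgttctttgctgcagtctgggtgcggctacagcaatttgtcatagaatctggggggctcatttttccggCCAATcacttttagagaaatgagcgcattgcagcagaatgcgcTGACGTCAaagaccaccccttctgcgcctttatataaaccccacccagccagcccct
These matches began 190, 100 and 57 bases before the start, in a stretch with 10 CpG. TGACGTCA was present in 1.55% of all promoters of this length in the table and in 2 of the 42 promoters of imprinted genes (4.76%). The arrays did not measure methylation or binding at these letters.

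Mature miRNAs encoded within these transcripts are shown for what the host RNAs carry, since the arrays read the hosts and not the miRNAs. RefSeq placed 28 mature miRNAs from 15 hairpin genes on the plus strand within the spans of Meg3 (3), Rian (6) and Mirg (19). The 5 shown come from Meg3 (chr12:109563710-109563731), Rian (chr12:109618305-109618326) and, for the last 3, Mirg (chr12:109743764-109743784, chr12:109735669-109735692 and chr12:109739132-109739152), with the seed, bases 2 to 8, in capitals.
mmu-miR-770-5p: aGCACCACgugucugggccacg
mmu-miR-370-3p: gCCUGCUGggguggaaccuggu
mmu-miR-410-3p: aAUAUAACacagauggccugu
mmu-miR-453: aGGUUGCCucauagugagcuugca
mmu-miR-496a-5p: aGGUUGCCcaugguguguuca
The last pair share the seed GGUUGCC, the single seed held by more than 1 of the 28.

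In the Peg3 and Peg10-Sgce domains, Peg3, Usp29, Peg10 and Asb4 were lowest in WT Scl+ by their brightest probe sets. Peg3, a zinc finger protein, read 12.62 and 12.42 in WT Scl+, 13.02 and 12.85 in WT Scl-, and 13.04 and 12.88 in SclKO. WT Scl+ was the low group and the other groups overlapped. Peg3 was lower in WT Scl+ than in WT Scl- by a difference of -0.42 (95% interval -0.81 to -0.03, adjusted p = 0.51 in limma). SclKO lay 0.44 above WT Scl+ and 0.02 above WT Scl- (95% interval -0.37 to 0.41). All 3 Peg3 probe sets above the limit had these signs. Usp29, of the ubiquitin-specific peptidase family, read 9.53 and 9.71 in WT Scl+, 10.17 and 10.03 in WT Scl-, and 10.30 and 9.95 in SclKO. It differed by -0.48 between WT Scl+ and WT Scl- and by 0.51 between SclKO and WT Scl+, or by 0.33 without SclKO replicate 1. Its second, dimmer probe set gave the opposite signs, 0.60 and -0.27.

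Peg10, a gag-like protein derived from a retrotransposon, read 12.08 and 11.61 in WT Scl+, 12.81 and 12.54 in WT Scl-, and 12.44 and 12.23 in SclKO. The groups did not overlap, with WT Scl+ lowest and WT Scl- highest. It differed by -0.83 between WT Scl+ and WT Scl- (95% interval -1.35 to -0.31, adjusted p = 0.40 in limma). Asb4, a maternally expressed ankyrin repeat and SOCS box protein in the same cluster, read 10.14 and 9.00 in WT Scl+, 10.91 and 10.49 in WT Scl-, and 10.72 and 10.56 in SclKO. Asb4 in WT Scl+ differed from WT Scl- by -1.13 (95% interval -2.04 to -0.22), and SclKO exceeded WT Scl+ by 1.07 (95% interval 0.16 to 1.98). Much of the size came from the low WT Scl+ replicate 2. Without it the differences were -0.57 and 0.50, and without replicate 1 they were -1.70 and 1.64. Sgce, which encodes epsilon-sarcoglycan, read 8.05 and 7.43 in WT Scl+, 8.34 and 8.26 in WT Scl-, and 7.76 and 7.10 in SclKO. SclKO did not overlap WT Scl- and lay lower, with a difference of -0.87 (95% interval -1.59 to -0.16) that was -0.54 without SclKO replicate 2.

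Mest, Plagl1 and Grb10 were the 3 members at an unadjusted p under 0.05 with WT Scl+ above WT Scl-. Mest (Peg1), a hydrolase-fold protein known from embryonic mesoderm, read 11.74 and 12.13 in WT Scl+, 11.13 and 11.41 in WT Scl-, and 10.77 and 10.29 in SclKO. All 3 groups were separate, in the reverse of the order seen for Phlda2. Mest differed by 0.66 between the WT groups (95% interval 0.09 to 1.23, adjusted p = 0.49 in limma). SclKO was lower by -1.41 than WT Scl+ (95% interval -1.98 to -0.83, adjusted p = 0.13 in limma) and by -0.74 than WT Scl- (95% interval -1.32 to -0.17, adjusted p = 0.89 in limma). Leaving out 1 array kept the first of these SclKO differences between -1.64 and -1.17. Plagl1 (Zac1), a zinc finger transcription factor, read 11.33 and 11.72 in WT Scl+, 10.63 and 10.84 in WT Scl-, and 10.50 and 11.30 in SclKO. By this probe set WT Scl+ was highest, by 0.79 over WT Scl- (95% interval 0.07 to 1.50), and the other groups overlapped. The other 2 Plagl1 probe sets gave 0.55 and 0.26 between the WT groups. In them SclKO overlapped WT Scl+ (-0.06 and -0.02) and differed from WT Scl- by 0.49, without overlap, and 0.24, with overlap.

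The second of the Mest promoters in RefSeq, chr6:30737800-30738049 on the plus strand of GRCm38.p6, is shown because it was 1 of the promoters of imprinted genes with the ZFP57 core. Capitals mark GCGGCA, the other strand of TGCCGC.
Mest: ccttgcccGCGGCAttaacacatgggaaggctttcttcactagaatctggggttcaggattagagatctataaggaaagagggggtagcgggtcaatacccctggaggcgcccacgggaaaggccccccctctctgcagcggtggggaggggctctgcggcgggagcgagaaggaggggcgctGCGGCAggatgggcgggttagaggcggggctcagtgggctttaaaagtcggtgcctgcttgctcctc
It held 14 CpG and 2 matches, which began 242 and 67 bases before the start. On either strand, TGCCGC was present in 6 of the 42 promoters of imprinted genes (14.3%) and in 2850 of all 32851 (8.68%). Of these 6, 2 are Mest promoters that overlap almost fully and hold the same 2 matches, the one shown and chr6:30737803-30738052. The same stretch is thus counted in both. The 42 promoters, of 28 genes, had a median of 9 CpG, against 6 for all promoters.

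The Snrpn domain on chromosome 7 had members that pointed both ways. Magel2, of the MAGE protein family, read 6.01 and 5.15 in WT Scl+, 6.94 and 6.47 in WT Scl-, and 7.30 and 6.79 in SclKO. WT Scl+ was lowest without overlap, by -1.13 from WT Scl- (95% interval -1.96 to -0.30), or -0.70 without WT Scl+ replicate 2. SclKO exceeded WT Scl+ by 1.47 (95% interval 0.64 to 2.30, adjusted p = 0.18 in limma). This Magel2 difference was 1.04 without WT Scl+ replicate 2 and 1.90 without WT Scl+ replicate 1. Its neighbour Ndn (necdin), also of the MAGE family, read 10.29 and 10.17 in WT Scl+, 10.18 and 9.97 in WT Scl-, and 9.93 and 9.35 in SclKO. Ndn was lowest in SclKO, by -0.59 from WT Scl+ (95% interval -1.13 to -0.04) and by -0.30 without SclKO replicate 2. Its 5 probe sets above the limit were all lower in SclKO than in WT Scl+, by -0.59 to -0.10. Peg12, a FRAT-family regulator of Wnt signalling, read 6.12 and 6.63 in WT Scl+, 5.89 and 5.90 in WT Scl-, and 5.88 and 5.79 in SclKO. It was lower in SclKO than in WT Scl+ by a difference of -0.54 (95% interval -1.03 to -0.05), and by -0.29 without WT Scl+ replicate 2.

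Ube3a, a ubiquitin ligase imprinted in neurons, and Snrpn itself, a ribonucleoprotein, passed no threshold. Ube3a read 10.22 and 10.00 in WT Scl+, 10.29 and 10.32 in WT Scl-, and 10.17 and 9.96 in SclKO. Its difference between SclKO and WT Scl- was -0.25 (95% interval -0.64 to 0.14). Snrpn, from its 1 probe set with a single symbol, lay between 5.96 and 6.59 and differed by 0.18 (95% interval -0.36 to 0.73).

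Among the remaining genes, each a cluster of its own, Nnat was at an unadjusted p under 0.05 in 1 comparison. Nnat, the membrane proteolipid neuronatin, read 8.62 and 7.45 in WT Scl+, 8.57 and 8.51 in WT Scl-, and 9.20 and 9.38 in SclKO. SclKO was above all WT arrays, by 1.25 from WT Scl+ (95% interval 0.37 to 2.13, adjusted p = 0.24 in limma) and 0.75 from WT Scl- (95% interval -0.14 to 1.63). WT Scl+ replicate 2 was the low array, and without it the first difference was 0.67. Without WT Scl+ replicate 1 it was 1.84.

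Gnas, which encodes a G protein alpha subunit, read 12.11 and 11.94 in WT Scl+, 12.05 and 12.17 in WT Scl-, and 12.29 and 12.18 in SclKO, with a difference of 0.12 between SclKO and WT Scl- (95% interval -0.24 to 0.49). Impact, a regulator of the GCN2 pathway, read 8.28 and 7.32 in WT Scl+, 8.34 and 8.11 in WT Scl-, and 8.67 and 8.08 in SclKO, with a difference of 0.14 (95% interval -0.72 to 1.01). For Gnas both SclKO values lay just above all WT values, and for Impact the groups overlapped. Dcn, the proteoglycan decorin, stayed near the dim limit, between 4.50 and 4.84. Nap1l5, of the nucleosome assembly protein family, stayed under it on all arrays, between 2.60 and 3.32, and so did Zim1, a zinc finger protein, between 3.63 and 4.40.

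Genes beside the clusters were read in the same way. For each cluster the 5 nearest tested genes on each side that are no members were taken, a choice made after values had been seen. Some of them stand on the second list of imprinted genes below, such as Ins2, Nap1l4 and Osbpl5 beside the Kcnq1 domain. Tssc4, beside the Igf2-H19 domain, is another, so the flanks are not a set of genes free of imprinting. Around the Dlk1-Dio3 domain the 10 flanking genes differed between SclKO and WT Scl- by -0.23 to 0.31, and 0 of them passed an unadjusted p under 0.05 in limma. Around the Igf2-H19 domain the range was -0.35 to 0.41, with Tssc4 higher and the mitochondrial ribosomal protein gene Mrpl23 lower at that threshold. Around the Kcnq1 domain Tnfrsf22, of the TNF receptor family, was higher (0.58) and Mrpl23 lower. Around the Igf2r-Airn domain it was -0.08 to 0.45, and the phosphodiesterase gene Pde10a passed the threshold, higher in SclKO. The Meg3, Rian, Igf2 and Igf2r differences lay outside the range of their flanking genes. The Peg10-Sgce domain had wider flanks (-0.77 to 2.38), with Tac1, a tachykinin precursor, 2.38 higher in SclKO and Bet1, of vesicle transport, 0.39 higher. Ikzf1, a transcription factor of blood cells beside Grb10, stood 2.85 higher in WT Scl+ cells than in WT Scl- cells, a difference above that of Grb10 (1.15). Chromosome medians were small on chromosomes 7, 12, 17 and 6 in SclKO against WT Scl- (0.04, 0.01, 0.06 and 0.01).

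**Figure D4:**
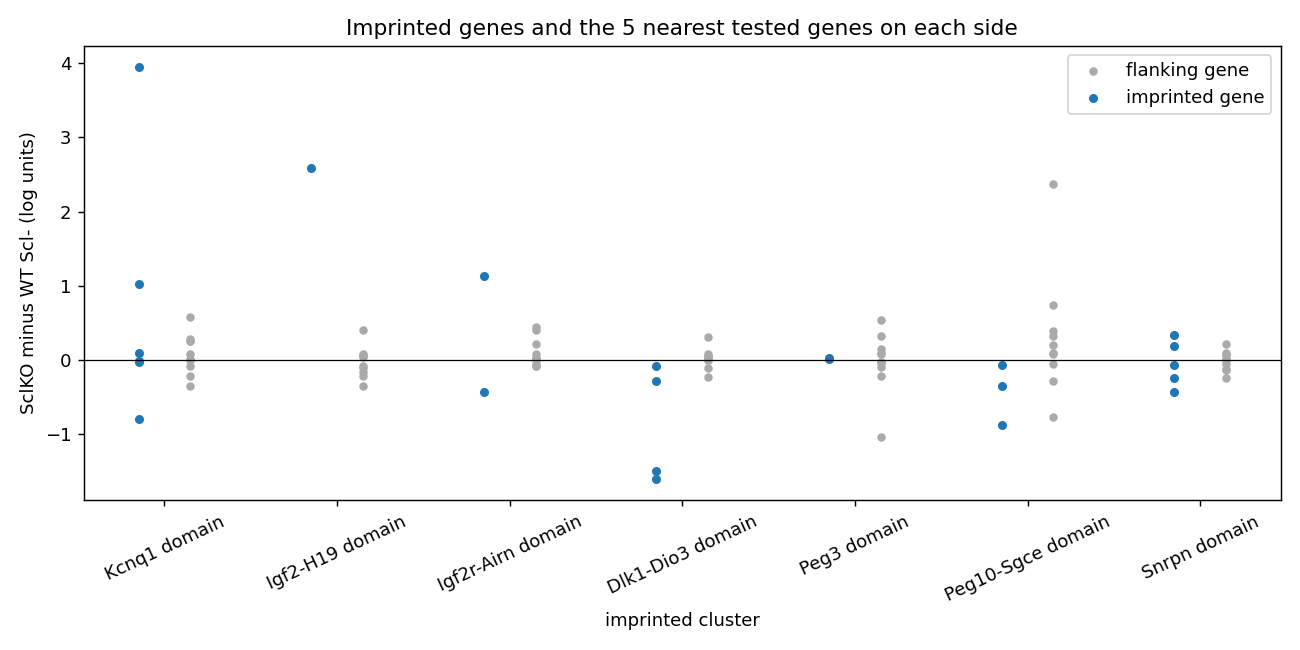
Difference of SclKO minus WT Scl- in log units (vertical axis) for the tested imprinted genes of 7 clusters (blue) and the 5 nearest tested genes on each side that are no members (grey). Some of the grey genes are themselves reported as imprinted. In the Dlk1-Dio3 domain Meg3 and Rian lie at -1.50 and -1.60, under flanking genes at -0.23 to 0.31, and in the Peg10-Sgce domain the flanking gene Tac1 lies at 2.38.

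Further genes reported as imprinted, 46 in number, were read as a second list, of which 40 were measured and 31 tested. Between SclKO and WT Scl-, 3 were higher and 1 lower (12.9% of those tested, against 5.53% of all genes). H13, a signal peptide peptidase, was 1.02 higher (SE 0.16), Zdbf2, a zinc finger protein, 0.50 higher (SE 0.16) and Tssc4, in the Kcnq1 region, 0.41 higher (SE 0.14), while Sfmbt2, a Polycomb protein, was lower by a difference of -0.45 (SE 0.16). Against WT Scl+, 2 were higher in SclKO (H13 by 0.82, Zdbf2 by 0.57) and 2 lower (Ppp1r9a by -1.08, Ddc by -0.60), 12.9% of those tested against 14% of all genes. Between the WT groups, 2 were higher in WT Scl+ (Ppp1r9a, a neurabin within the Peg10-Sgce cluster, by 1.18, and the survival factor Bcl2l1 by 0.68) and 1 was lower (the amino acid transporter Slc38a4, by -0.70), 9.68% against 9.14% of all genes.

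Among factors that set or keep imprints, most passed no threshold. Of 17 tested genes, which included Zfp57, Zfp445, Trim28, Dnmt1 and Uhrf1, 1 passed an unadjusted p under 0.05 between SclKO and WT Scl-, the DNA methyltransferase Dnmt3b, 0.55 higher (5.88% of the list against 5.53% of all genes). Zfp57 itself lay between 7.75 and 8.08 on the 6 arrays. Against WT Scl+, Dnmt3a was higher in SclKO by 0.44, and the 5-methylcytosine oxidases Tet2 and Tet3 were lower by -1.13 and -0.84 (17.6% of the list against 14%). Between the WT groups 0 of the 17 passed in limma. Of 5 tested CDK inhibitors other than Cdkn1c, 0 passed in any comparison in limma, and their differences between SclKO and WT Scl- ran from -0.38 (Cdkn1a) to 0.62 (Cdkn2b).

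Markers of other cell types moved with the groups, and their part in the differences above was not tested. The counts are at an unadjusted p under 0.05 in limma, which 9.14% of all genes passed between the WT groups. For SclKO the shares of all genes were 14% against WT Scl+ and 5.53% against WT Scl-. Between WT Scl+ and WT Scl-, all 8 tested blood markers and 7 of 9 tested endothelial markers were higher in WT Scl+, and 8 of 10 mesoderm markers were lower. Against WT Scl+, SclKO had all 8 blood markers and 6 of 9 endothelial markers lower and 8 of 10 mesoderm markers higher. In both counts 1 of the 8 blood markers, Hba-x, was above the dim limit in WT Scl+ only, so that its being tested was tied to the difference. Between SclKO and WT Scl-, 0 of 10 mesoderm and 0 of 9 endothelial markers passed in limma, and 2 of 8 blood markers were lower. In that comparison 1 of 7 pluripotency markers was higher, Pou5f1, by 1.09 log units. Against WT Scl+ 2 of the 7 were higher in SclKO (Pou5f1 by 1.52, Tdgf1 by 1.54), and between the WT groups Dppa4 was higher (1.73) and Tdgf1 lower (-1.32). Of 8 tested cardiac and mesenchymal markers, 3 were higher in SclKO than in WT Scl+ (Myl7 by 1.18, Twist1 by 0.89, Col1a2 by 0.54) and 1 than in WT Scl- (Twist1 by 0.84), while Myl7 differed between the WT groups by -1.43. Of 3 neuroectoderm markers, Otx2 was 2.43 higher in SclKO than in WT Scl+. Visceral endoderm, a tissue rich in several imprinted RNAs, was read by 10 markers, of which 7 were tested and 2, Apoa1 and Foxa2, were higher in SclKO than in WT Scl- (by 0.71 and 0.74). In the same list Sox17 and Rhox5 stood above WT Scl- in WT Scl+ cells (by 1.51 and 0.74), and SclKO differed from WT Scl+ by -1.16 and -0.56. Afp, of the same list, was too dim to be tested in these cells. It read 4.55 and 4.45 in WT Scl+, 4.32 and 4.06 in WT Scl-, and 4.08 and 3.85 in SclKO. The mean level of the 10 markers was 5.41 to 5.46 in SclKO, 5.22 to 5.28 in WT Scl- and 5.52 to 5.56 in WT Scl+.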

How the data were processed

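RNA of sorted Flk1+ cells was read on 6 Affymetrix mouse arrays. The submitters' processing notes name RMA, affy and limma, without versions. The authors deposited signal values of unstated unit that are not log values, and the natural log was taken here. Their log ran from 1.18 to 14.85. All columns of per-sample values were used (0 left out). Symbols came from the platform annotation, updated through Entrez identifiers. Probe sets with several symbols, 8 of them listing a member, were left out.

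Each gene was read from its probe set of highest mean, and was tested if above the array's 40th percentile on at least 2 arrays. Group means were fitted over all 6 arrays (limma 3.58.1, R 4.3.3; eBayes, two-sided, Benjamini-Hochberg over 12922 genes, 95% intervals from the same fit; 3 residual and 3.16 prior degrees of freedom). The fit was tested on simulated data. The number of arrays limits the precision.

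Values on each array are given for Tal1, Kdr, members past the adjusted threshold, members at an unadjusted p under 0.05 whose groups do not overlap, and the member with the highest mean in each cluster. From other lists at most the 3 smallest unadjusted p-values under 0.05 per comparison are named. Igf1, Zfp57, Cdkn1a, Cdkn2b, Afp, Ikzf1, the flanking genes, and the other probe sets of Mirg, Dlk1, Grb10 and Plagl1 were also given after their values were seen. The members and lists were chosen with earlier results of these data known. CCAAT, TGACGTCA and the flanking genes were chosen after seeing the sequences or values. Promoter and miRNA sequences are from RefSeq (GRCm38.p6), and motifs were searched on both strands. The 3 motifs do not overlap each other in the promoters shown. Promoters were taken for 28 member genes, and chromosome 18, which carries Impact, was left out of this member set. The alternatives tried were a block for the replicate number, other filters, other probe set choices, only the 4 arrays compared, median centring, a variance trend and leaving out each array.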

Additional observations from a re-analysis of the deposited data

How the results depend on the processing

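Over 35 pairs of a named imprinted gene and a comparison and 14 alternative settings, 488 differences could be computed. Of these, 454 kept their direction and their side of an adjusted p of 0.05, 24 kept their direction and newly passed it, 7 kept their direction and lost it, and 3 reversed. The 7 are Cdkn1c with 1 array of a compared group left out. The 3 are Usp29, whose difference between WT Scl+ and WT Scl- became 0.60 with the most variable probe set and 0.064 with every probe set on its own, and whose difference between SclKO and WT Scl+ became -0.27 with the most variable probe set.

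Genes past the adjusted threshold for SclKO against WT Scl+ numbered 1 as reported, 3 with the replicate block, 9 with a filter at the 60th percentile, 2 with the most variable probe set, 2 with every probe set on its own, 49 with only the 4 arrays compared, 18 with a variance trend, and 0 to 701 with 1 array left out. For SclKO against WT Scl- they numbered 1 as reported, 2 under each of the same filter and both probe set choices, 3 with a variance trend, and 0 to 1 with 1 array left out. For WT Scl+ against WT Scl- the count was 0 under each setting that kept all arrays of those groups, and 0 to 203 with 1 array left out. The causes were not tested.

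Counts of imprinted genes at an unadjusted p under 0.05 ranged, with 1 array left out, from 2 to 16 for WT Scl+ against WT Scl-, from 10 to 18 for SclKO against WT Scl+ and from 6 to 11 for SclKO against WT Scl-. With the replicate number as a block they were 11, 19 and 10, against 9, 16 and 10, and Phlda2 between SclKO and WT Scl+ had an adjusted p of 0.0315 in limma. Arrays with the same number deviated together (correlations 0.254, 0.247 and 0.249 between groups), which is a hint from the data, not the design. Median differences of the imprinted genes moved by less than 0.32 under the settings run. That value is the spread between replicates of the members' median level on an array, not of a median difference, so it does not show stability. With 1 array left out they ran from -0.05 to 0.002 for WT Scl+ against WT Scl-. For SclKO they ran from -0.15 to 0.04 against WT Scl+ and from -0.14 to 0.06 against WT Scl-, so their sign was not fixed. With 2 arrays a group and 3 residual degrees of freedom, a difference that misses the threshold is not shown to be absent, and values under the dim limit give bounds only.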
